A study of Homo sapiens with 64 samples.

Results

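The results concern 6 genes with known functions in neurons, NGFR, NPTX1, UNC13A, CPLX2, GPR22 and KIF21B, out of the 60649 genes counted in 4 human non-small cell lung cancer cell lines. The 6 genes were selected on measured values of these same libraries, namely large changes in single lines with TMP195 or with TMP195 and MYCi975 together, and the choice names no threshold. The values of those treatments are therefore given as a description, with no test, and tests are given for MYCi975 alone, for the lines in vehicle and for the difference between lines in the MYCi975 response. By the sign of the fitted differences alone, the description as line-specific holds in part only. UNC13A and KIF21B had positive fitted differences with the combination in all 4 lines. For UNC13A in H838 that difference was 1.48 ± 0.60 (SE) log2 units, and the combination libraries overlapped vehicle. CPLX2 had negative fitted differences in all 4 lines, though its combination libraries overlapped vehicle in H838, H1703 and H1755. NGFR had positive ones in H460, H1703 and H1755 and was not fitted in H838. In H460 and H1755 it had 11 and 6 vehicle counts summed over 4 libraries. NGFR passed the low-count filter in those lines through treated libraries only, so its positive signs there are no support. The fitted differences of NPTX1 and GPR22 with the combination differed in sign between lines.

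H460, H838, H1703 and H1755 cells were grown in medium with fetal serum and treated for 24 h with DMSO vehicle, with MYCi975 at 5 µM, with TMP195 at 25 µM, or with both agents. MYCi975 is a small-molecule inhibitor of the MYC transcription factor, and TMP195 inhibits class IIa histone deacetylases, which bind MEF2 transcription factors. Total RNA was sequenced in 4 libraries per line and treatment, 64 in all, and each line is a single established tumor line. One library of H838 with TMP195 carries in its cell line field a name that is none of the 4, and it was placed by its title. Nothing in the labels says that the 4 libraries of a group came from separate cultures, so p-values measure only the spread between these libraries.

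Neurons release transmitter when synaptic vesicles dock, are primed by UNC13 proteins and fuse through SNARE proteins, on which complexins act as clamps and promoters of fusion. Neurotrophins act through Trk receptor kinases and through p75, the product of NGFR, which can promote survival or death. Neuronal pentraxins are secreted at synapses and cluster AMPA-type glutamate receptors, and kinesins carry cargo along microtubules. Many such genes are held off outside the nervous system, in part by the repressor REST and its corepressors with histone deacetylases.

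The libraries held 17352066 to 34236552 counts. The 16 libraries of replicate 4 had 5.12 to 10.7% of counts in mitochondrial ribosomal RNA, and the 36 libraries of the largest set had 10.1 to 19.1%. Another 5 libraries, from H838 and H1703, had 7.39 to 10.2%. In H460, 7 libraries carried counts for genes whose exons overlap another gene's, such as EEF1G, which read 0 in the other 57. Replicate 4 stood apart from replicates 1 to 3 in several of the 6 genes, and its part in the results was not tested. Of the 12 epithelial and mesenchymal markers examined, KRT8 ranged from 20.7 CPM (counts scaled to library size) in H1703 to 1480 CPM in H460 in vehicle, VIM from 507 to 2649 CPM, and SFTPC and TP63 had means of 0.0798 CPM or less in every line. The neuroendocrine regulators NEUROD1 and INSM1 were at 0.0956 CPM or below in vehicle in every line, and REST, the repressor of neuronal genes, lay between 106 and 192 CPM. The 27 neuronal and neuroendocrine genes listed, REST among them, summed to 412 to 1161 CPM in vehicle libraries, with 21 to 26 of them counted in a line. REST is thus a part of that sum. The 13 neural crest and glial genes summed to 73.8 to 173.7 CPM, with 10 to 12 counted, where SOX10 was at 0.519 CPM or below and S100B at 0 in every vehicle library. RNA was taken from whole cultures, so a change in the share of cells that express a gene and a change in level per cell cannot be told apart.

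Promoter windows are shown for the members that had a sequence available, whatever their response. With the combination in H460, UNC13A was higher and CPLX2 and GPR22 were lower. The RefSeq table (GRCh38.p14) gives 300 bases for 1 start per gene, 250 before and 50 after it, and 3 of the 6 members matched: UNC13A at chr19:17688305-17688604 on the minus strand, CPLX2 at chr5:175796283-175796582 on the plus strand and GPR22 at chr7:107469807-107470106 on the plus strand. NGFR, NPTX1 and KIF21B are named only. Capitals mark matches to the motifs searched, and sequences run 5′ to 3′ along the gene.
UNC13A: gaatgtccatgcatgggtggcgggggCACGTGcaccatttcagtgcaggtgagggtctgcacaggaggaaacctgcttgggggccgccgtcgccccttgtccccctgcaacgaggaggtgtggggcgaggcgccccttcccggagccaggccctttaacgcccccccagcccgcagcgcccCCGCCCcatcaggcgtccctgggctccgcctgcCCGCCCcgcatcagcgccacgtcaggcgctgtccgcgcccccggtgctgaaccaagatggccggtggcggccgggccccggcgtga
CPLX2: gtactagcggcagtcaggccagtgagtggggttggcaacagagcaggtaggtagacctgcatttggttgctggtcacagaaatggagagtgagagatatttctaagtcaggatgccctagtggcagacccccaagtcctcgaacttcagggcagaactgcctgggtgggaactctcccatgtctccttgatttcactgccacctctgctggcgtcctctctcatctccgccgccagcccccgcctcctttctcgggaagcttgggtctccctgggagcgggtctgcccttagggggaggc
GPR22: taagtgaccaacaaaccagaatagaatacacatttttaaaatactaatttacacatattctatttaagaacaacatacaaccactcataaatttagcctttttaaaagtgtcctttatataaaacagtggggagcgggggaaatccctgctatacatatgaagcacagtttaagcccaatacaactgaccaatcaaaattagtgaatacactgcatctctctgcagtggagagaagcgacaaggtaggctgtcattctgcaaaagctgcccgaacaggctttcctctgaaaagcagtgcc

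On both strands, CACGTG (the E-box bound by MYC and MAX), TGACGTCA (the cyclic AMP response element), TGATGCAA (the C/EBP-ATF element), GGGCGG (the GC box) and the MEF2 consensus were searched. The UNC13A window held 1 E-box, at -224 to -219 from the start, and 2 GC boxes on the opposite strand. No motif overlapped another there. The CPLX2 and GPR22 windows held none of the 5. Of the 35116 promoter windows in the table, 7.26% held the E-box, 1.85% the cyclic AMP response element, 0.866% the C/EBP-ATF element, 45% the GC box and 2.99% the MEF2 consensus. G and C made up 73% of the UNC13A window, 59% of the CPLX2 window and 38.3% of the GPR22 window, against a median of 58.7% over the table. A match is a description of letters and not a bound site.

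All 6 genes differed between lines in vehicle, where 87.7% of the 22279 genes tested were called by edgeR's quasi-likelihood test with Benjamini-Hochberg adjustment below 0.05, so the count of 6 is near the background. NGFR and UNC13A were highest in H1703, CPLX2 and GPR22 in H460, NPTX1 in H838 and KIF21B in H1755. NGFR, the p75 neurotrophin receptor on chromosome 17 (GENCODE 29, GRCh38, bases 49495293 to 49515017), stood at 6.43 CPM ± 0.528 (SD, n = 4) in H1703 and at 0.147 ± 0.0773 or less in the other lines. H838 minus H1703 was -5.33 ± 0.361 (SE) on the log2 scale (adjusted p = 1.02e-09). H838, H460 and H1755 did not differ beyond their spread (adjusted p = 0.163 to 0.528). They had 15, 11 and 6 counts summed over 4 vehicle libraries, too few to show that these lines are alike.

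NPTX1, neuronal pentraxin 1 (chromosome 17, bases 80467148 to 80477843), was highest in H838 at 50.7 CPM ± 23.9 (SD, n = 4), where replicate 4 read 86.0 against 34.3 to 44.4 in the others. H1703 stood next at 4.57 ± 0.699, then H1755 at 2.85 ± 0.531 and H460 at 2.22 ± 0.289. H838 exceeded H1703 by 3.47 ± 0.258 (SE) log2 units (adjusted p = 3.39e-09), and H1755 and H460 were not distinguished (adjusted p = 0.254).

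CPLX2, complexin 2 (chromosome 5, bases 175796310 to 175884020), was at 92.1 CPM ± 21.6 (SD, n = 4) in H460 and at 2.73 ± 0.466 in H1703, 2.64 ± 1.48 in H1755 and 0.809 ± 0.44 in H838. In H1755, replicate 4 read 4.73 against 1.27 to 2.46 in the others. GPR22, an orphan G protein-coupled receptor found in brain and heart (chromosome 7, bases 107470018 to 107475659), was also highest in H460, at 13.3 ± 4.45 CPM against 1.49 ± 0.171 in H1755. H460 exceeded H1755 by 5.10 ± 0.358 (SE) log2 units for CPLX2 (adjusted p = 1.98e-09) and by 3.15 ± 0.341 for GPR22 (adjusted p = 4.55e-07). For GPR22, H838 at 0.881 CPM was not distinguished from H1755 (adjusted p = 0.0847) or from H1703 at 0.556 CPM (adjusted p = 0.141), while H1755 exceeded H1703 (adjusted p = 0.00323).

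UNC13A, a vesicle priming factor (chromosome 19, bases 17601328 to 17688365), was highest in H1703 at 14.1 CPM ± 4.85 (SD, n = 4) and at 6.10 ± 3.22 in H838, a difference of -1.22 ± 0.398 (SE) log2 units (adjusted p = 0.0140). H460 at 2.98 and H1755 at 1.57 CPM did not pass (adjusted p = 0.0784). Replicate 4 was the lowest H1703 library, at 7.18 CPM against 15.1 to 18.5. KIF21B, a kinesin motor with a role in microtubule dynamics (chromosome 1, bases 200969390 to 201023700), was highest in H1755 at 3.06 ± 1.30 and next in H1703 at 1.55 ± 0.27 (adjusted p = 0.0129). H460 at 0.869 and H838 at 0.701 CPM did not pass (adjusted p = 0.482). Per kilobase of exon, KIF21B was the least of its pair in every line, at 0.0577 to 0.252 CPM per kb against 6.57 to 27.5 for KIF21A.

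Levels per kilobase set the members beside their relatives in vehicle. In H460, CPLX2 stood at 13 CPM per kb and CPLX1, the other neuronal complexin, at 1.24. UNC13B, a related priming factor, was above UNC13A in all 4 lines, at 1.76 to 3.18 against 0.14 to 1.26 CPM per kb. In H838, NPTX1 stood at 7.56 CPM per kb and NPTX2 at 0.0425, while in H1703 and H460 NPTX2 was above NPTX1, at 6.39 and 4.09. In H1703, NGFR stood at 1.55 CPM per kb and SORT1, the co-receptor for proneurotrophins, at 6.54.

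**Figure D1:**
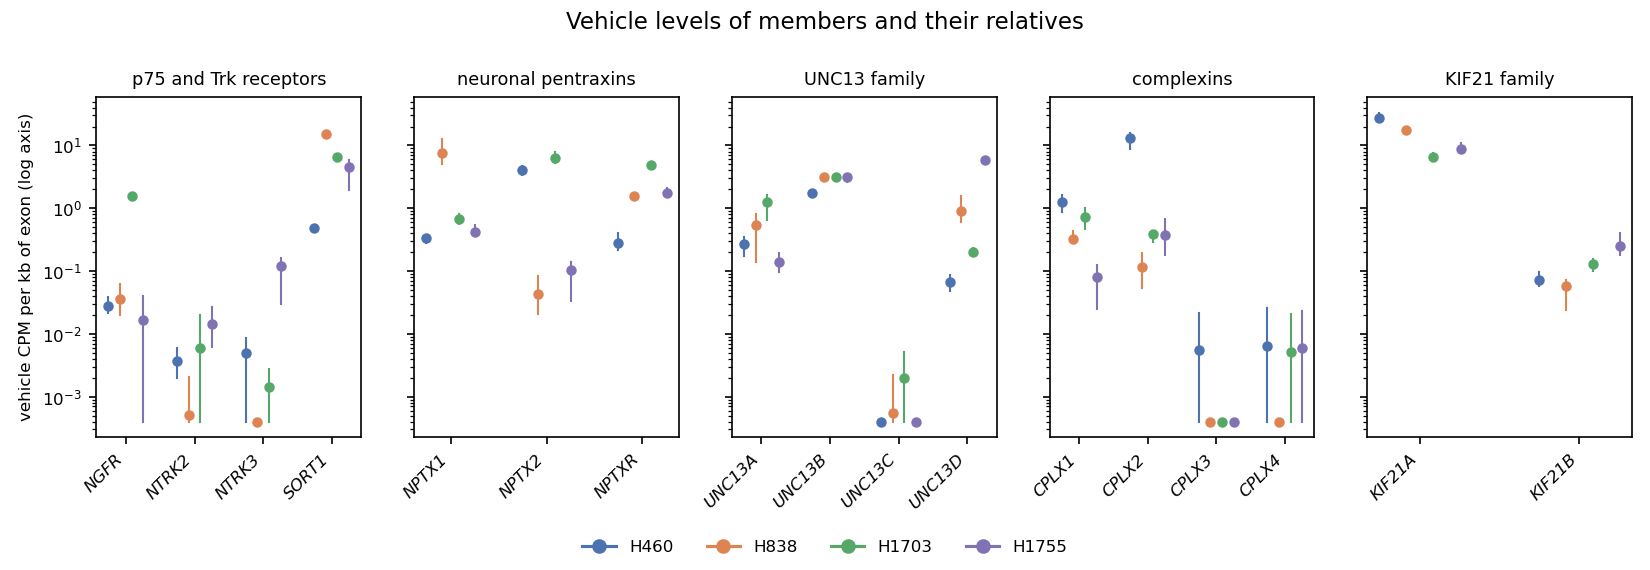
Vehicle levels of members and relatives in CPM per kilobase of exon (log axis), with points for means of 4 libraries, lines for their range, and values of 0 drawn at the foot. CPLX2 in H460 stands at 13 and KIF21A lies above KIF21B in every line.

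NGFR had the largest fitted difference of the 6 genes with the combination, in H1703. Its vehicle libraries there read 7.06, 6.66, 5.95 and 6.04 CPM for replicates 1 to 4, and the combination libraries read 135, 85.9, 107 and 115. The MYCi975 libraries read 27.8, 20.6, 19.7 and 71.7 CPM, and the TMP195 libraries 57.2, 49.4, 43.5 and 53.4. No treated library overlapped vehicle, TMP195 lay between MYCi975 replicates 1 to 3 and the combination, and replicate 4 with MYCi975 lay above the other 3 of its group. The fitted difference from vehicle was 2.98 ± 0.32 (SE) log2 units with TMP195 and 4.09 ± 0.33 with the combination, which was -1.33 ± 0.42 from the sum of the single agents. That sum takes in replicate 4 with MYCi975. The MYCi975 difference was 2.44, and 1.78 without replicate 4 of every group. In the other 3 lines NGFR had 0 to 23 counts in any library, where 3 counts is taken as the limit of a count of 0. Summed over 4 libraries, it had 11 counts in vehicle and 54 with the combination in H460, a ratio of 5.43 per library size. H1755 had 6 against 50, a ratio of 7.29, and 4 of the 6 vehicle counts were in replicate 4. The fitted difference there was 2.81 log2 units, and 3.78 without replicate 4 of every group. H838 gave 15 against 41, a ratio of 2.65, and NGFR did not pass the low-count filter there. Of the 15 vehicle counts in H838, 8 were in replicate 4, and the same-numbered ratios of combination to vehicle were 5.53, 2.47 and 7.40 in replicates 1 to 3 and 0.563 in replicate 4. The ratio in replicate 4 went the other way, but it rested on 8 vehicle and 4 combination counts. Replicates 1 to 3 had 2 to 3 vehicle counts each. These counts are too few to show that the direction differed between replicate 4 and the others.

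Part of NGFR's exons lie on the strand opposite to other annotated genes: 202 bases are shared with NGFR-AS1 and 924 with AC015656.1. NGFR-AS1 read 0.407 CPM on average in vehicle, 2.78 with MYCi975, 3.65 with TMP195 and 8.98 with the combination in H1703. AC015656.1 read 0.222, 1.81, 2.68 and 6.24 CPM in the same groups, so both rank the groups as NGFR did. The library kit marks strand, but the strand setting of the counting is not given in the sources used here, and reads of these genes may have been assigned to NGFR or the reverse.

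NPTX1 was lower with the combination in H1703 and H838. In H1703 the vehicle libraries read 5.45, 3.77, 4.39 and 4.65 CPM and the combination libraries 0.634, 0.685, 0.626 and 0.591, from 91 to 146 counts and from 15 to 17. The MYCi975 libraries read 2.41, 2.09, 2.0 and 1.07 CPM and the TMP195 libraries 2.91, 2.01, 2.17 and 1.62. All 12 treated libraries lay below all 4 vehicle libraries, and the fitted differences were -1.07 ± 0.22 (SE) log2 units with TMP195 and -2.86 ± 0.25 with the combination. In H838 the vehicle libraries read 34.3, 38.0, 44.4 and 86.0 CPM and the combination libraries 22.2, 28.6, 24.7 and 17.9, a fitted difference of -1.12 ± 0.28. Replicate 4 was the highest library in vehicle and the lowest in the combination there, and without replicate 4 of every group the difference was -0.63. In H1755 and H460 the fitted differences with the combination were positive, 0.70 ± 0.28 and 0.41 ± 0.21. In H1755 its combination libraries, at 3.83 to 5.79 CPM, lay above vehicle, at 2.41 to 3.61.

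UNC13A was higher with the combination in every line, most in H460. There the vehicle libraries read 2.99, 3.85, 3.13 and 1.95 CPM and the combination libraries 27.8, 28.6, 26.6 and 46.7. The TMP195 libraries read 12.9, 13.2, 16.2 and 16.5 CPM and the MYCi975 libraries 5.01, 4.52, 6.03 and 10.4. The 4 groups did not overlap, in the order vehicle, MYCi975, TMP195 and combination, and the fitted differences were 2.30 ± 0.28 (SE) log2 units with TMP195 and 3.44 ± 0.30 with the combination. In H1703 the vehicle libraries read 15.1, 18.5, 15.7 and 7.18 CPM and the combination libraries 35.7, 33.0, 30.3 and 24.0, a difference of 1.11 ± 0.23. In H1755 vehicle read 1.66, 1.09, 1.38 and 2.16 CPM and the combination 7.35, 6.83, 4.86 and 15.5, a difference of 2.45 ± 0.53. In H838 replicate 4 was low in every treatment, at 1.55 CPM in vehicle against 6.58 to 9.11 in the others and at 3.46 with the combination against 19.2 to 24.2. The ratio of combination to vehicle in replicate 4 was 2.23, and in replicates 1 to 3 of H838 it was 2.69, 2.65 and 3.16.

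CPLX2 and GPR22, both highest in H460 in vehicle, were lower there with the combination. CPLX2 read 110.4, 105.6, 62.5 and 89.7 CPM in H460 vehicle and 23.0, 36.9, 29.9 and 11.3 with the combination. With TMP195 alone it read 89.0, 95, 49.2 and 82.1 CPM, which overlapped vehicle. The fitted difference for the combination was -1.86 ± 0.39 (SE) log2 units, which was -1.01 ± 0.54 from the sum of the single agents. In the largest set alone, which holds 1 vehicle and 2 combination libraries of H460, the difference was -0.90. The fitted difference with the combination was negative in the other lines too, at -1.51 ± 0.59 in H838, -0.82 ± 0.25 in H1703 and -0.64 ± 0.42 in H1755. H838 had 2 to 27 counts per library, and the combination libraries overlapped vehicle in all 3 of these lines.

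GPR22 read 12.4, 11.5, 9.53 and 19.7 CPM in H460 vehicle and 3.17, 4.07, 4.83 and 3.07 with the combination. The TMP195 libraries read 12.2, 11.7, 9.06 and 14.5 CPM and the MYCi975 libraries 8.88, 9.03, 8.09 and 5.55. TMP195 overlapped vehicle, MYCi975 lay below it, and the fitted difference was -1.81 ± 0.24 (SE) with the combination and -0.16 ± 0.24 with TMP195. In the largest set alone the combination difference was -1.08. The combination was -0.90 ± 0.33 from the sum of the single agents in H460. In the other lines its values were low, at 0.29 to 2.53 CPM per library, and the combination difference was 0.34 ± 0.43 in H838, 0.86 ± 0.38 in H1703 and -0.37 ± 0.50 in H1755.

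GPR22 lies within the span of COG5, a subunit of a Golgi tethering complex, on the opposite strand, with no shared exon bases. COG5 read 46.8, 47.5, 45.5 and 56.8 CPM in H460 vehicle and 66.6, 72.2, 69.1 and 106.0 with the combination. Its difference there was 0.68 ± 0.17 (SE), higher where GPR22 was lower. In H1703 both were higher with the combination, by 0.74 ± 0.10 for COG5 and 0.86 ± 0.38 for GPR22.

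**Figure D2:**
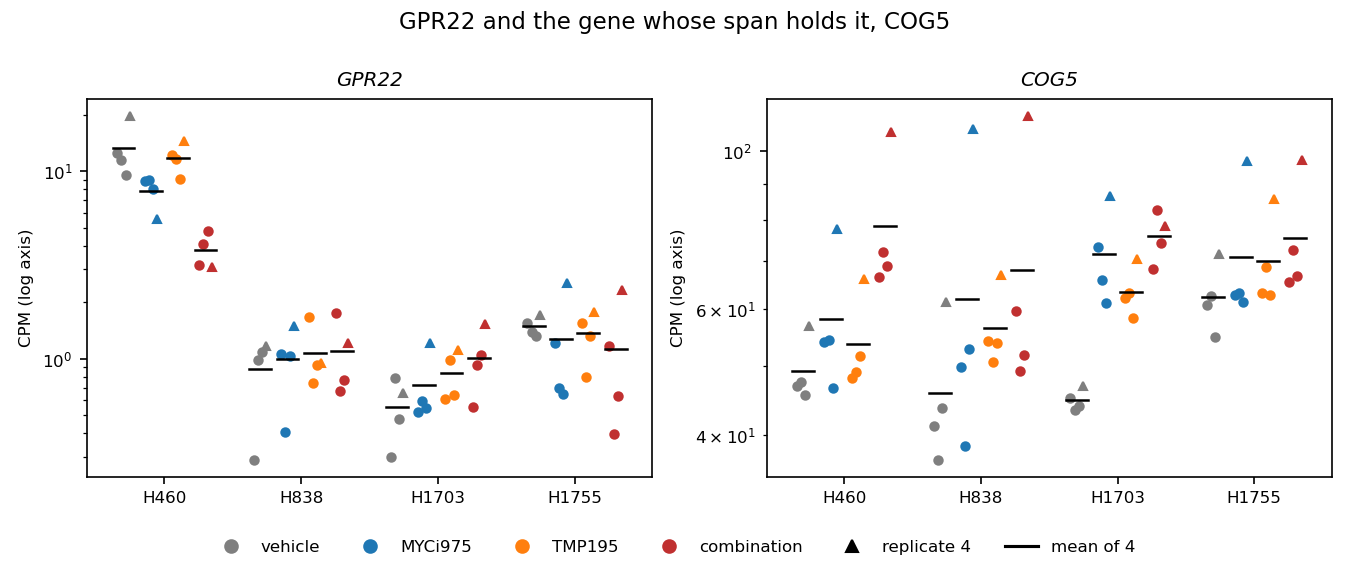
CPM (log axis) of GPR22 and of COG5, whose span holds it, in every library by line and treatment, with bars for the mean of 4 libraries and triangles for replicate 4. In H460, GPR22 with the combination lies between 3.07 and 4.83 CPM, below vehicle, while COG5 lies between 66.6 and 106.0.

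KIF21B was higher with the combination in every line. In H460 the vehicle libraries read 0.696, 1.18, 0.691 and 0.914 CPM and the combination libraries 8.45, 8.09, 4.58 and 9.89. In H1703 vehicle read 1.46, 1.66, 1.24 and 1.87 CPM and the combination 6.38, 5.36, 5.71 and 9.17. In H1755 vehicle read 2.21, 2.35, 2.70 and 4.98 CPM and the combination 6.55, 8.27, 10.8 and 16.8. In each of these lines every combination library lay above every vehicle library, and replicate 4 was the highest of the combination group. The fitted differences with the combination were 3.15 ± 0.47 (SE) log2 units in H460, 2.08 ± 0.27 in H1703 and 1.78 ± 0.53 in H1755, with 1.59 ± 0.39 in H838. In H838 the combination libraries, at 2.59, 0.909, 2.01 and 2.89 CPM, also lay above vehicle, whose highest was 0.879. With TMP195 alone the fitted differences were smaller, 1.16 ± 0.45 in H460 and 1.16 ± 0.28 in H1703, then 0.95 ± 0.53 in H1755 and 0.27 ± 0.42 in H838.

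**Figure D3:**
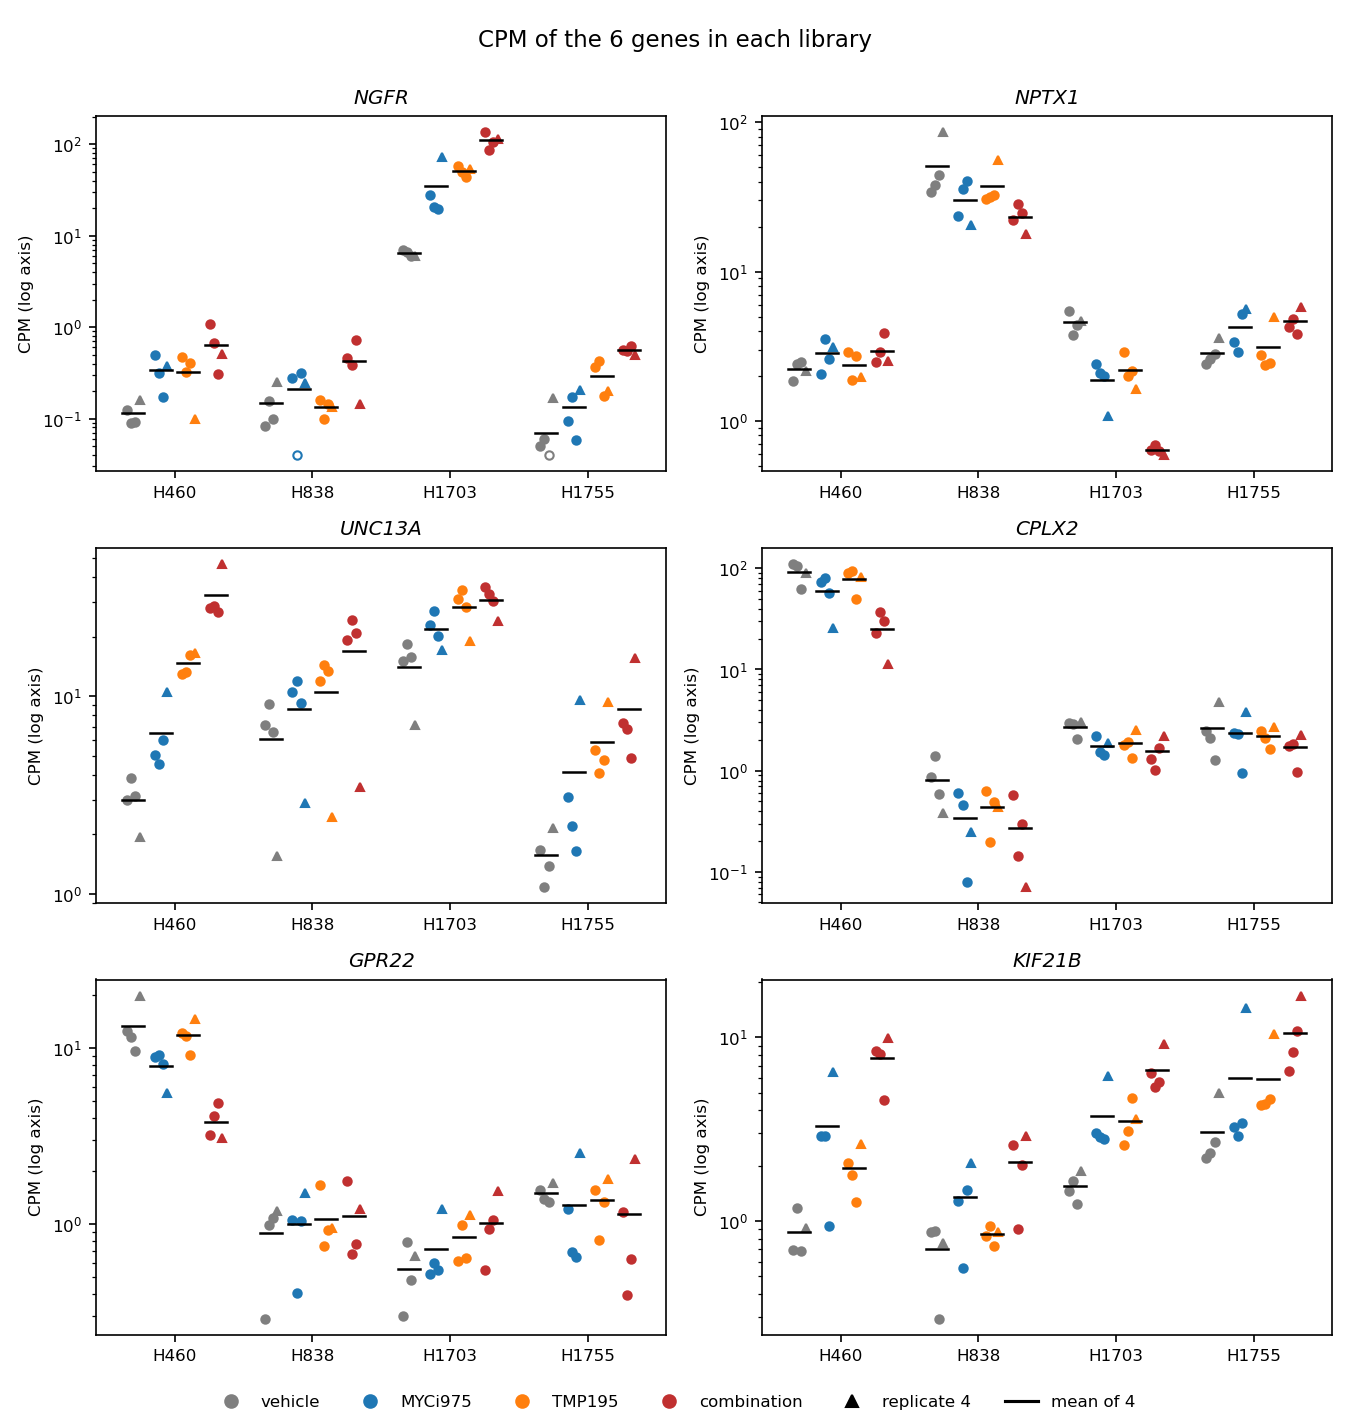
CPM (log axis) of the 6 genes in every library, by line and treatment, with bars for the mean of 4 libraries, triangles for replicate 4 and open symbols at the foot for libraries with 0 counts. NGFR in H1703 reaches 135 CPM and NPTX1 in H838 reaches 86.0.

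In H460 the combination libraries did not overlap vehicle for 5 of the 6 members, 3 above and 2 below, where 18.9% of all genes tested did not overlap and 15.7% were called. H838 had 1 above and 1 below, where 12.3% of genes did not overlap and 3.24% were called. H1703 had 3 above and 1 below, where the shares were 34.9% and 38.3%, and H1755 had 4 above, where they were 7.86% and 1.69%. With TMP195, H460 had 2 above, where 6.65% of genes did not overlap and 1.13% were called. H838 had none, with shares of 10.1% and 0.572%, and H1703 had 3 above and 1 below, with 18.4% and 9.65%. H1755 had 2 above, with 4.15% and 0.43%. Since the genes were chosen on these treatments, the counts of members are not read against those shares. All 3 treatments of a line share its vehicle libraries.

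**Figure D4:**
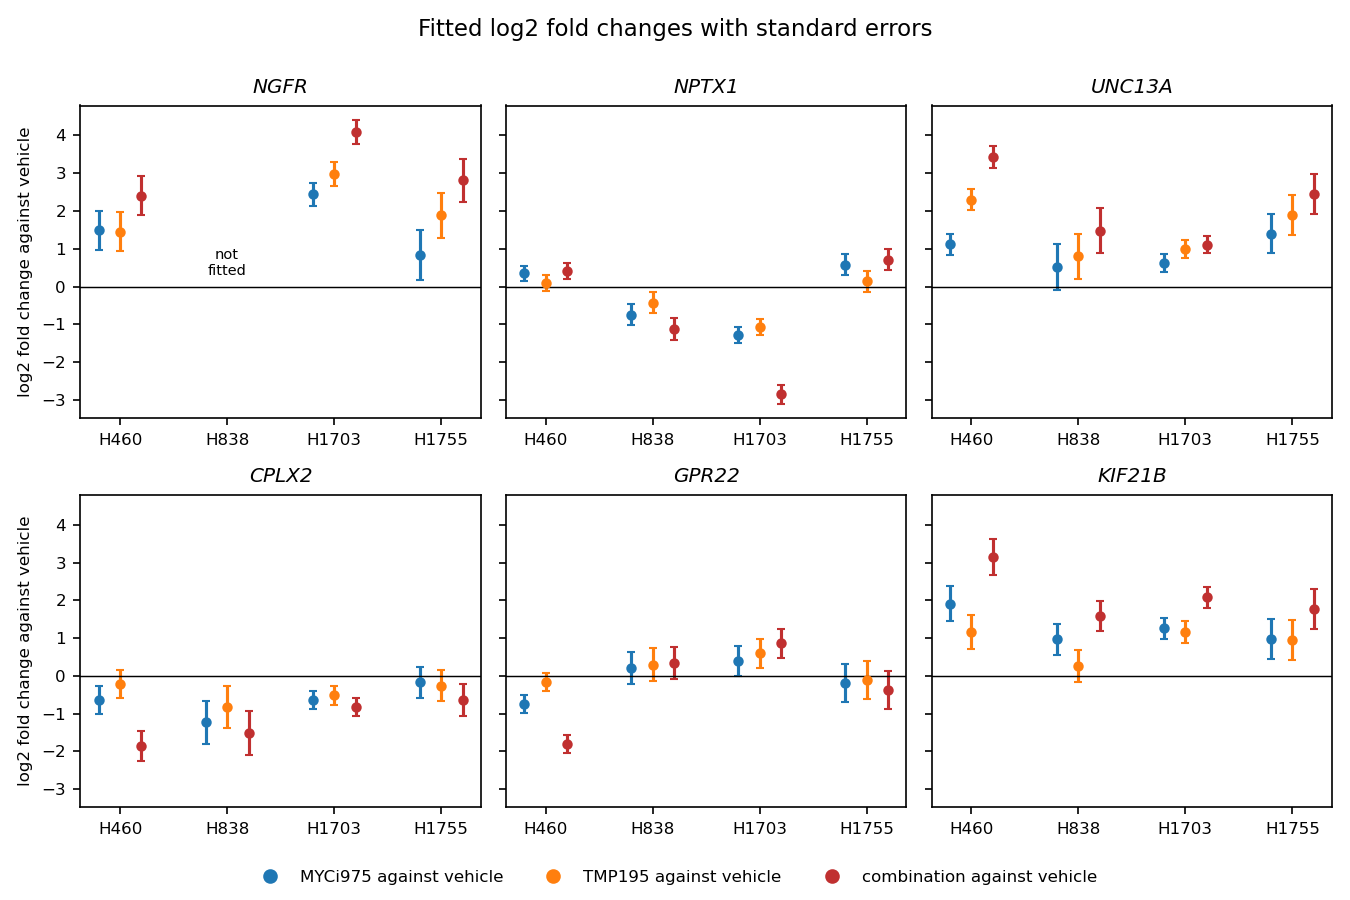
Fitted log2 fold changes against vehicle with standard errors (edgeR, 16 libraries per line) for each gene, line and treatment. The combination values for UNC13A and KIF21B lie above 0 in all 4 lines, and NGFR in H838 was not fitted.

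MYCi975 alone was not among the treatments on which the genes were chosen. It shares their vehicle libraries, and the combination holds the same 5 µM of MYCi975, so the choice may favor genes that MYCi975 moves. In H1703, MYCi975 changed 3 of the 6. There 10.2% of 20827 genes tested were called. NGFR rose by 2.44 ± 0.31 (SE) log2 units (adjusted p = 1.66e-04), from 6.43 CPM ± 0.528 (SD, n = 4) to 35.0 ± 24.8. Without replicate 4 of MYCi975, at 71.7 CPM, the difference was 1.82 ± 0.15. NPTX1 fell by 1.28 ± 0.22 log2 units (adjusted p = 0.00159), from 4.57 CPM ± 0.699 to 1.89 ± 0.576. KIF21B rose by 1.26 ± 0.28 (adjusted p = 0.00753), from 1.55 ± 0.27 to 3.72 ± 1.65 CPM. It was not called in 1 fit of all 64 libraries, with adjusted p = 0.104 in a range from 2.27e-04 to 0.104 over 17 alternatives. UNC13A at 0.62 ± 0.23 (adjusted p = 0.0973) and CPLX2 at -0.64 ± 0.24 (adjusted p = 0.1) did not pass, and GPR22 was at 0.39 ± 0.39. UNC13A was called in 5 of 17 alternatives (adjusted p from 2.04e-04 to 0.602) and CPLX2 in 2 (0.0183 to 0.485).

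None of the 6 was called with MYCi975 in H460, where 1.09% of genes tested were, by edgeR at an adjusted p below 0.05. KIF21B at 1.91 ± 0.45 (SE) log2 units (adjusted p = 0.0603) and UNC13A at 1.12 ± 0.27 (adjusted p = 0.0707) came nearest, and GPR22 was at -0.75 ± 0.24 (adjusted p = 0.177). 4 of the 6 passed before adjustment, as did 2292 of the 21226 genes tested. DESeq2 called 3, KIF21B, UNC13A and GPR22, among 664 genes over the whole table. Same-numbered libraries of vehicle and MYCi975 deviated together in H460, where they also belong to the same library sets. With the replicate number as a block KIF21B and UNC13A were called, among 1384 genes over the whole table. Over 18 alternatives the adjusted p of KIF21B ranged from 6.78e-04 to 1 and that of UNC13A from 0.00223 to 1. The largest set alone, with 1 library a group, gave KIF21B a difference of 0.43.

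In H838, where 0% of 20624 genes were called with MYCi975, none of the 5 fitted members was called, 3 passed before adjustment and DESeq2 called 0. Of all genes there, 1541 passed before adjustment and DESeq2 called 33. In H1755, where 0.0643% of genes were called, none of the 6 was called, 1 passed before adjustment and DESeq2 called 0. Of the 20218 genes tested there, 947 passed before adjustment, and DESeq2 called 68 genes. Same-numbered libraries deviated together in H1755, where they also belong to the same library sets. With the replicate number as a block, UNC13A, KIF21B and NPTX1 were called there, among 1866 genes over the whole table. KIF21B in H1755 rested on replicate 4, which read 14.3 CPM against 2.89 to 3.43, and without that library its difference of 0.97 ± 0.53 (SE) became 0.04. UNC13A in H1755, at 9.52 CPM in replicate 4 against 1.65 to 3.10, went from 1.40 ± 0.52 to 0.55 without it.

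None of the 6 was called for a difference between the lines in the MYCi975 response, where 0.004% of genes were called (1 of 24980) and 1180 passed before adjustment. NPTX1 had the lowest value (adjusted p = 0.187), and it was the 1 member that passed before adjustment. It had differences of -1.28 ± 0.22 (SE) in H1703 and -0.75 ± 0.28 in H838, against 0.35 ± 0.21 in H460 and 0.58 ± 0.28 in H1755. DESeq2 called it, as did the fit of all 64 libraries, the replicate block and a term for the sets of libraries, with adjusted p from 0.00331 to 0.376 over 38 alternatives. Those fits called 79, 41, 870 and 709 genes over the whole table. The other 5 members had adjusted p = 1.00.

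Related genes of the same functions, chosen with earlier results of these data known and holding none of the 6, were counted for context beside the median log2 difference over all genes tested, which lay between -0.031 and 0.0152 in every comparison. Of 32 genes of vesicle release, 28 were tested in H1703 and 8 were called higher and 3 lower with the combination, 11 of 28 where 38.3% of all genes were called. SNAP25, a SNARE protein, rose by 1.32 ± 0.42 (SE) log2 units (adjusted p = 0.0196), from 0.173 to 0.449 CPM. Its vehicle mean was near the limit of 3 counts, which is 0.11 to 0.13 CPM in these vehicle libraries. In H460, 4 of 28 were higher, where 15.7% of all genes were called, with STX1A, a syntaxin of the plasma membrane, at 0.99 ± 0.16 (adjusted p = 0.00108) and SYT1, the calcium sensor of release, at 1.09 ± 0.22 (adjusted p = 0.00441). H838 had 0 of 24 called and H1755 had 1 of 27, STX1A. UNC13B was at 0.13 ± 0.07 (adjusted p = 0.242) with the combination in H460, and CPLX1 was at -0.10 ± 0.23 (adjusted p = 0.850). The list median with the combination was 0.24 in H460 and 0.19 in H1703. Without H1703 vehicle replicate 2, 7 of the list were called there. With MYCi975, VAMP2, a vesicle SNARE, rose by 0.69 ± 0.12 in H1703 (adjusted p = 0.00207), and TMP195 gave 0.61 ± 0.13 (adjusted p = 0.00548).

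Of 23 neurotrophins, receptors and p75 partners, 15 were tested in H460, and 3 were called higher with the combination (15.7% of all genes called), BDNF and TNFRSF19 among them. BDNF, a neurotrophin, rose by 1.17 ± 0.16 (SE) log2 units (adjusted p = 3.28e-04). In H1703, 2 of 17 rose and 3 fell (38.3% of all genes called), and 3 were called without vehicle replicate 1 or without vehicle replicate 3. The list median was 0.099 in H460 and -0.0011 in H1703. SORT1 fell by 0.52 ± 0.09 in H1703 with the combination (adjusted p = 1.64e-04). MAGED1, a p75-binding protein, fell by 0.72 ± 0.21 in H1703 (adjusted p = 0.0113) and rose by 1.12 ± 0.27 in H838 (adjusted p = 0.0343), where SHC1 was also higher. No gene of this list was called in H1755 in any treatment, and none with MYCi975 in any line. TNFRSF19, a receptor, rose with TMP195 in H460 by 0.91 ± 0.17 (adjusted p = 0.0226).

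Of 10 pentraxins and AMPA receptor subunits, 4 were tested in H1703, where NPTX2 and NPTXR fell and GRIA4 rose with the combination. NPTX2, neuronal pentraxin 2, fell by 1.57 ± 0.18 (SE) log2 units (adjusted p = 7.83e-06), and NPTXR, the membrane-anchored pentraxin receptor, fell by 0.96 ± 0.14 (adjusted p = 4.05e-05). NPTX2 also fell with MYCi975 in H1703, by 0.86 ± 0.18 (adjusted p = 0.00522). The median of the 4 was -0.24. The other lines had 2 to 3 tested and none called in any treatment.

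Of 22 transport kinesins and light chains, 9 rose and 3 fell with the combination in H1703, 12 of 22 tested against 38.3% of all genes. In H460, 2 rose and 2 fell, 4 of 21 tested against 15.7%, while 1 rose in H838 and 1 fell in H1755. The list median was 0.21 in H1703 and 0.10 in H460, where 2 were called without vehicle replicate 1. KIF1A, a motor for synaptic vesicle precursors, rose in H460 by 2.21 ± 0.35 (SE) log2 units (adjusted p = 7.61e-04), from 1.47 to 6.84 CPM, and in H1703 by 0.31 ± 0.08 (adjusted p = 0.00406). KIF1A also rose with MYCi975 in H460, by 1.53 ± 0.34 (adjusted p = 0.0497). KIF21A did not pass in any line with the combination, at -0.18 ± 0.09 (adjusted p = 0.125) in H1703. Of 13 brain orphan receptors, GPR27 rose in H460 by 0.93 ± 0.19 (adjusted p = 0.00480) and in H1703 by 0.94 ± 0.16 (adjusted p = 1.88e-04), and GPR19 fell by 0.64 ± 0.13 in H1703 (adjusted p = 0.00110).

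Among 27 neuronal and neuroendocrine genes, 6 rose and 2 fell with the combination in H460, 8 of 17 tested against 15.7% of all genes. In H1703, 6 rose and 5 fell, 11 of 16 against 38.3%. None was called in H838 and 1, INA, rose in H1755. VGF, a neuropeptide precursor, rose by 1.65 ± 0.24 (SE) log2 units in H460 (adjusted p = 5.10e-04) and by 1.29 ± 0.22 in H1703 (adjusted p = 1.75e-04). The list median was 0.20 in both H460 and H1703. The neurofilament gene NEFH fell by 2.84 ± 0.45 in H460 (adjusted p = 8.32e-04) and fell by 1.27 ± 0.29 in H1703 (adjusted p = 0.00232). REST itself was among the 6 genes that rose in H1703. Among 13 neural crest and glial genes, 1 rose in H460, 2 rose and 2 fell in H1703, 1 fell in H838 and 1 fell in H1755. Without H460 combination replicate 4, 2 were called in H460. TFAP2A, a neural crest transcription factor, fell by 1.11 ± 0.19 in H1703 (adjusted p = 2.66e-04). Among the 12 epithelial and mesenchymal markers, KRT18, KRT19 and VIM rose in H460 and ZEB1 rose in H1703 with the combination. Without the 7 H460 libraries that counted overlapping genes, the H460 combination count was 0 for the vesicle, neurotrophin, kinesin, orphan receptor, neuronal and neural crest lists. That fit kept 2 vehicle and 3 combination libraries, and the genes called over the whole table went from 3334 to 292.

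The genes most like each member were those with the highest Pearson correlation over 12 treatment differences, 3 in each of 4 lines, among 13673 candidates, and the differences of a line share their vehicle libraries. For NGFR they were TRPT1 (r = 0.956), PRELID3A and TMC7. For NPTX1 they were DAG1 (r = 0.972), FCHO1 and AVPR2, and for UNC13A, FIBCD1 (r = 0.919), TNNT1 and ZC3H12C. For CPLX2 they were GALNT4 (r = 0.949), GPRIN1 and MRPL12, and for GPR22, DAB1 (r = 0.959), MLF1 and SLF2. For KIF21B they were VGF (r = 0.951), SH3PXD2A and NINL. Counts of GALNT4, MRPL12 and DAB1 moved with the H460 library sets, whose part in the likeness was not tested. The 7 libraries that counted overlapping genes held 309 to 429 counts of GALNT4, 1109 to 1687 of MRPL12 and 82 to 113 of DAB1, against 1 to 10, 30 to 64 and 3 to 23 in the other 9. Their fitted H460 differences with the combination were -0.81 ± 2.12 (SE) for GALNT4, -1.31 ± 1.68 for MRPL12 and -1.18 ± 1.19 for DAB1 (adjusted p = 0.615 to 0.867). The largest difference among the 12 fell on H1703 with the combination for the genes like NGFR and NPTX1, and on H460 with the combination for the other 4 sets. Among the 6 themselves, r ranged from -0.771 for NPTX1 and GPR22 to 0.70 for UNC13A and KIF21B over the same 12 differences.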

How the data were processed

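RNA sequencing was made from total RNA of 4 lung cancer lines under 4 treatments. The deposited values are raw counts per gene and library in a table of 60649 genes. The submitters' processing notes name the build (GRCh38, hg38) and the tools featureCounts, STAR and Trimmomatic; versions, annotation release and strand setting of the counting are not given in the sources used here. Symbols and positions were matched on Ensembl ID to GENCODE 29 (58381 genes matched).

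No column of the table was left over (0). Counts were tested with edgeR 4.0.16 in R 4.3.3: TMM, filterByExpr by group, quasi-likelihood fit of 4 group means over 16 libraries per line, called at a Benjamini-Hochberg adjusted p below 0.05 over all genes tested. The SE is the log2 fold change divided by the root of F. CPM used TMM over 64 libraries. Lines in vehicle and the line by MYCi975 interaction had their own fits. Scripts were tested on simulated data. The alternatives were DESeq2 1.42.0, RLE factors, no filter, library sizes without mitochondrial genes, the replicate number as a block and a term for library sets. Others were the largest set alone, a fit of all 64 libraries and leaving out each library. Library sets were assigned from column names, EEF1G counts and the replicate number 4. The mitochondrial ribosomal RNA share describes the sets and did not assign them. Leaving out replicate 4 of every group, leaving out the 7 H460 libraries and the term for sets in the interaction were chosen after seeing the data. Libraries with the same number in their titles deviated together from their group means (every correlation above 0.1) in some comparisons only. These were MYCi975 and TMP195 in H460, the combination in H838, TMP195 in H1703 and all 3 treatments in H1755. Libraries with the same number often belong to the same set, so the check cannot tell paired cultures from shared sets. In H460 the correlations were 0.844 to 0.866 for MYCi975, whose sets match vehicle by number. They were -0.616 to 0.893 for the combination, whose replicate 2 is in another set than vehicle replicate 2.

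The members and gene lists (neurotrophin, pentraxin, vesicle release, orphan receptor, kinesin, neuronal, neural crest and epithelial) were chosen with earlier results of these data known. Listed genes are named if called in the most lines, up to 4 per list and treatment, ties by size of change; UNC13B, CPLX1, KIF21A, SORT1 and REST were named after their values were seen. Genes named as most like a member are the 3 with the highest correlation, on log2 CPM with a prior count of 2. A few listed genes are counted but not reported here by name.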

Additional observations from a re-analysis of the deposited data

Results flagged for a closer look

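In 9 of 96 groups of 4 libraries (9.38%), a single library lay far from the other 3 by Dixon's test at its 95% critical value, where chance gives about 1 in 20, and 8 of the 9 were replicate 4. NGFR in H1703 with MYCi975 read 71.7 CPM in replicate 4 against 19.7 to 27.8. NPTX1 read 55.9 CPM in replicate 4 of H838 with TMP195 against 30.5 to 32.8, and 4.95 CPM in replicate 4 of H1755 with TMP195 against 2.36 to 2.75. UNC13A read 46.7 CPM in replicate 4 of H460 with the combination against 26.6 to 28.6. GPR22 read 1.22 CPM in replicate 4 of H1703 with MYCi975 against 0.52 to 0.596. KIF21B read 6.19 CPM in replicate 4 of H1703 with MYCi975 against 2.81 to 3.01. It read 14.3 CPM in replicate 4 of H1755 with MYCi975 against 2.89 to 3.43, and 10.5 CPM in replicate 4 of H1755 with TMP195 against 4.30 to 4.60. CPLX2 was the exception, with 2.04 CPM in replicate 3 of H1703 vehicle against 2.90 to 3.0 in the others.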

How the results depend on the processing

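All 6 genes were called between lines in vehicle under every alternative run. With the replicate block, members called with MYCi975 numbered 2 in H460, 1 in H838 (UNC13A), 5 in H1703 (UNC13A and CPLX2 added) and 3 in H1755, against 0, 0, 3 and 0. Calls over the whole table rose as well, from 231 to 1384 in H460 and from 0 to 145 in H838. They rose from 2116 to 5328 in H1703 and from 13 to 1866 in H1755. Same-numbered libraries of vehicle and MYCi975 did not all deviate together in H838 or H1703. A term for library sets gave 3, 5 and 2 in H460, H1703 and H1755, where 1592, 5097 and 488 genes were called over the whole table. In H460, DESeq2 gave 3 among 664 genes called, and the fit of all libraries gave 1 (KIF21B) among 230. Leaving out 1 library gave 0 to 1 in H460, where KIF21B was called without MYCi975 replicate 3, and kept 3 in H1703. For the difference between lines, the replicate block, the term for sets, DESeq2 and the fit of all libraries each gave 1 (NPTX1). These fits called 870, 709, 79 and 41 genes over the whole table, against 1 in the main fit. The causes were not tested.

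Among MYCi975 differences of single genes, signs turned where the difference was no larger than about its SE: GPR22 in H838 was -0.062 in the largest set alone and between -0.092 and 0.44 on leaving out 1 library, GPR22 in H1703 -0.0028 to 0.60, GPR22 in H1755 -0.79 to 0.014 and CPLX2 in H1755 -0.51 to 0.29. Of the members' TMP195 and combination differences, 778 of 789 alternative values moved by less than a limit. That limit was a fixed multiple of the SE of the main fitted difference. Signs turned in 14 of 392 TMP195 values and 0 of 397 combination values. With the term for library sets, TMP195 in H838, none of whose libraries is in the largest set, went from -0.82 to 0.64 for CPLX2, from 0.27 to -0.082 for KIF21B and from 0.29 to -0.059 for GPR22. In H1755, leaving out 1 library took NPTX1 from 0.14 to -0.19 and CPLX2 from -0.26 to 0.21. The gene list counts moved by over 1.5 times in 304 of 1442 alternative values. Depth limits NGFR outside H1703 and CPLX2 in H838, which had few counts.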
